A study of Mus musculus with 2 samples.

Results

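Gene desert peaks are stretches of open chromatin that lie far from any protein-coding gene. They were taken here from DNase-seq of mouse cerebral cortex, as peaks on chromosomes 1 to 19 that overlapped no annotated gene body and lay over 200 kb from every transcription start site (TSS) of a protein-coding gene. The 200 bp around the centre of each peak also had to hold at least 40% G and C bases. Replicate 1 had 2686 such peaks among 71313 on these chromosomes, and replicate 2 had 6363 among 108103. Their share of these peaks was 3.77% in replicate 1 and 5.89% in replicate 2. Unnamed pairs of values below are those of replicate 1 and then replicate 2. A further 217 peaks in replicate 1 and 1495 in replicate 2 lay in the same stretches but had a lower GC content and were left out.

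The tissue was left cerebral cortex of adult male mice of 18 to 20 months, of the strain B6CASTF1/J, the first-generation hybrid of C57BL/6 and CAST, a strain derived from wild mice. The 2 libraries are biological replicates with separate tissue samples and the same donor entry in the labels, so the spread between them may be technical. No second age, strain or region was compared, and 2 libraries of a single group allow no test. Values of replicate 1 and replicate 2 are therefore set side by side, and statements on them hold for these libraries. Of 9 genes that mark cortical neurons, 8 had a promoter peak in both libraries, and all 4 oligodendrocyte markers did. Of 3 astrocyte markers, 3 had one in replicate 1 and 2 in replicate 2. Of 7 genes of other regions and organs, Hoxa9, Hoxb8, Hoxc10, En1, Alb, Cdh17 and Myod1, none had one. Of 3 microglial markers only Irf8 had one, Cx3cr1 and Csf1r having none in either library.

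DNase I cuts DNA where nucleosomes are absent, so a peak marks DNA that regulatory proteins can reach. Gene deserts are gaps between genes that often border developmental regulators and neuronal adhesion genes. They can hold distant enhancers, which act on a promoter by contact across a chromatin loop, and sites of CTCF, the zinc-finger protein that anchors such loops together with cohesin. A footprint is a short stretch inside a peak with few cuts, of the kind a bound protein leaves.

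Of 2327 gene desert peaks that paired one to one between the libraries, 140 held a match to the CTCF consensus in the central 200 bp in replicate 1. Leaving out a chromosome from which no sequence is printed here, the match lay in a footprint of both libraries in 117 pairs. The strongest of these 117 are shown, since they hold an element that both libraries shared. Each sequence is the peak of replicate 1 on the plus strand of mm10, 5′ to 3′, named by the flanking protein-coding genes, and capitals mark the CTCF match.
Gm31371/Gm15319 peak, chr8:20122141-20122300: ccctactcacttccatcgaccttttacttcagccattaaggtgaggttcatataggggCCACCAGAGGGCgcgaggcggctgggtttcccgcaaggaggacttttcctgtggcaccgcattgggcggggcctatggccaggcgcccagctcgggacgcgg
4931429L15Rik/Gm4791 peak, chr9:46735661-46735840: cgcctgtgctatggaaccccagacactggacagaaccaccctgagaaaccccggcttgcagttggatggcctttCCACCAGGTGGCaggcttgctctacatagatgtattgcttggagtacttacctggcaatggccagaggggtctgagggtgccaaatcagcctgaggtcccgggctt
Fut8/Gm6657 peak, chr12:77781481-77781640: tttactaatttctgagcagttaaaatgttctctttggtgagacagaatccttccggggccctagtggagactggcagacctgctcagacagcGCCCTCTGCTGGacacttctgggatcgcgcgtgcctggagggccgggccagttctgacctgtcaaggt
Jag1/Btbd3 peak, chr2:137942861-137943040: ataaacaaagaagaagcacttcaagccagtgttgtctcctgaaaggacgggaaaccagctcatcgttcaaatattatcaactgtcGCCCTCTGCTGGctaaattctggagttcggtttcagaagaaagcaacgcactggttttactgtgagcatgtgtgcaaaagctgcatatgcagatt
Tmem161b/Ccnh peak, chr13:84758641-84758820: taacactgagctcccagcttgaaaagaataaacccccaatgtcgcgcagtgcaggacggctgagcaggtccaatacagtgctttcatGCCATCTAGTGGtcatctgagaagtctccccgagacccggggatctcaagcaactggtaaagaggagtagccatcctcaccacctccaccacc
The match stood on the plus strand in the peaks next to Gm31371 and 4931429L15Rik and on the minus strand in the other three. Their signals, the authors' value per peak, were 18.4 and 13.6 at the Gm31371 peak, 5.50 and 3.67 at 4931429L15Rik, 5.94 and 2.47 at Fut8, 4.33 and 3.36 at Jag1, and 3.26 and 4.43 at Tmem161b. Replicate 1 was higher at 4 of the 5.

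Peaks among those with the most footprints, summed over both libraries, show another arrangement, with several short protected stretches in a wider peak. In the next sequences, the central 300 bp of each peak on the plus strand of mm10, capitals mark bases that lay in a footprint of both libraries.
Adcy2/Tent4a peak, chr13:69330567-69330866: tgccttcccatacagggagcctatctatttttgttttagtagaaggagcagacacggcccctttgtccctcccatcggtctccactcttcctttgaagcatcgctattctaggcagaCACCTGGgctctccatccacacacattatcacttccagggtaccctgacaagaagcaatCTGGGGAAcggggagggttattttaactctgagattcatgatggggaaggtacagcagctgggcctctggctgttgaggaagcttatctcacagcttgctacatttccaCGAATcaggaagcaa
Cd83/Jarid2 peak, chr13:44073151-44073450: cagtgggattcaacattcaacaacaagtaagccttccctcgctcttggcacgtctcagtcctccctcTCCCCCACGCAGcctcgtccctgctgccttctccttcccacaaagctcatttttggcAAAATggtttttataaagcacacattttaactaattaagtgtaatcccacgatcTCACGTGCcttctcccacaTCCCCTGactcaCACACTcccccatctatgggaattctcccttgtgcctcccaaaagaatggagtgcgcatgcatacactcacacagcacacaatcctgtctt
The peak between Adcy2, which encodes an adenylate cyclase, and Tent4a had 10 footprints in replicate 1 and 7 in replicate 2, and 20 of the printed bases were in footprints of both. The peak between Cd83 and Jarid2, a gene of the Polycomb machinery, had 7 and 7 footprints, with 38 such bases. The shared bases fell into 3 and 5 separate stretches in these peaks. Others with many footprints lay between Prickle1 and Adamts20 (6 and 8 footprints) and between Pard3 and Nrp1, the neuropilin receptor gene (6 and 7). These 4 had signals between 0.864 and 1.62 in replicate 1 and between 1.43 and 2.74 in replicate 2. The replicate 2 values were above the 75th percentile of gene desert peaks in that library (0.948). In replicate 1 the lowest, at the Adcy2/Tent4a peak, was little above the gene desert median of 0.772. None of the 4 held a CTCF match.

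Gene desert peaks were weaker than other peaks in both libraries. Their median signal was 0.772 in replicate 1 and 0.574 in replicate 2 (0.673 ± 0.140, SD, n = 2). Other intergenic peaks, outside gene bodies and between 1 and 200 kb from a protein-coding TSS, had 1.20 and 0.867 (1.03 ± 0.236). Peaks inside genes had 1.12 and 0.894, and promoter peaks, within 1 kb of a protein-coding TSS, had 1.79 and 1.33. The order of gene desert below other intergenic peaks held within each library, in the lists as deposited, in which replicate 1 had the higher values. With the same number of strongest peaks from each library the gene desert median was 0.772 in replicate 1 and 1.07 in replicate 2, so the order of the libraries turned. In the deposited lists, gene desert peaks were also the weaker within each of 5 classes of GC content: at 45 to 50% GC the medians were 0.746 and 0.581 in gene deserts and 1.10 and 0.821 in other intergenic sequence. In a tissue of many cell types, an opening in fewer cells and a smaller opening per cell cannot be told apart. The peaks were also somewhat narrower in replicate 1, with a median width of 162.5 bp in gene deserts and 180 bp in other intergenic sequence, and equally wide in replicate 2, with 200 bp in both.

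**Figure D1:**
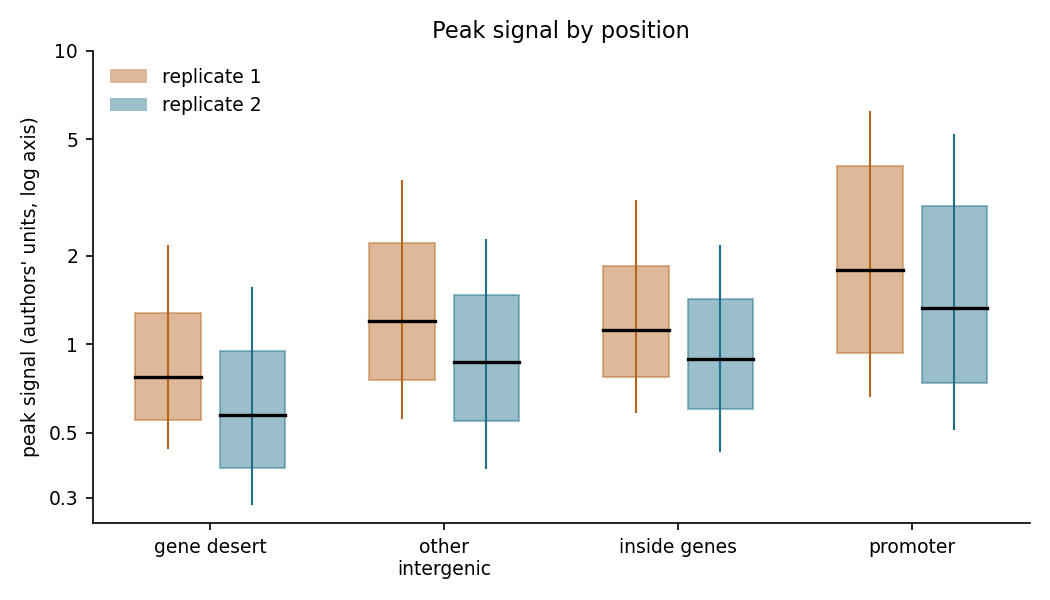
Peak signal in the authors' units, on a log axis, for gene desert, other intergenic, inside genes and promoter peaks of replicate 1 and replicate 2. The box spans the 25th to 75th percentile, the black line is the median and the thin line runs between the 10th and 90th percentile; gene desert medians are 0.772 and 0.574, below those of the other classes in both libraries.

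A few gene desert peaks were strong. The strongest in both libraries lay on chromosome 8 at 20122141 to 20122300, with a signal of 18.4 in replicate 1 and 13.6 in replicate 2. It is 219 kb from Gm31371 and 241 kb from Gm15319, and it carries the CTCF match shown above. Its nearest TSS of any annotated gene, noncoding ones included, was only 84 bp away, and neither flanking gene had a promoter peak. The next, between Ddx18, an RNA helicase gene, and Dpp10, a subunit of potassium channels, had 17.2 and 3.88. This was the least even of the 10 strongest, with a ratio of 4.44 between the libraries. The third had 11.7 and 8.52 and lay 2376 kb from Cntnap5b, a gene of the neurexin-like adhesion proteins, and 2140 kb from Cdh20, a cadherin gene.

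Myt1l, a transcription factor gene of neurons, was 237 kb from the fourth, which had 6.28 in replicate 1 and 8.65 in replicate 2 and was the only member of the 10 that was stronger in replicate 2. It was also the widest of these peaks, at 400 and 380 bp, and held 5 and 6 footprints. The fifth, between Lrig3 and Atp23, had 10.0 and 3.8. The sixth had 8.52 and 4.08 and lay 374 kb from Slc4a3 and 1452 kb from Epha4, which encodes a receptor for ephrins. The seventh, between Pik3c3 and Rit2 on chromosome 18, had 7.39 and 4.84 and a CTCF match. Others of the 10 lay between Slc7a11, the cystine and glutamate exchanger, and Noct (6.60 and 5.01), and between Icos and Pard3b (7.13 and 3.78). CTCF matches were found in 2 of the 10, a NeuroD-type E-box in 2 and an AP-1 match in 2, and the other five had none of the 17 motifs searched. The central 50 bases of each of the 10 occurred once in the reference genome.

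**Figure D2:**
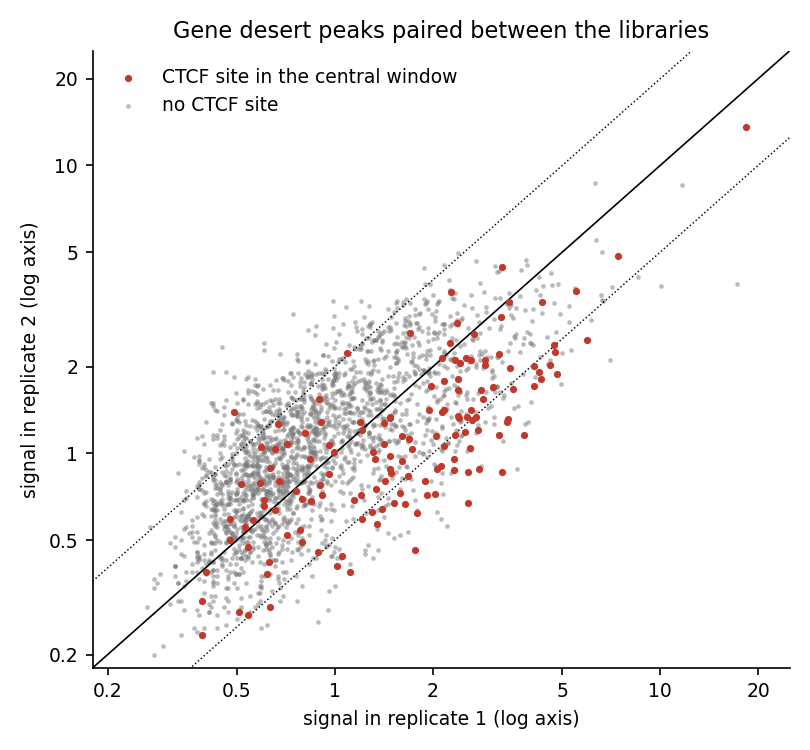
Signal of 2327 gene desert peaks that paired one to one, replicate 1 across and replicate 2 upward, both on log axes in the authors' units. Each point is a pair, red where either peak has a CTCF match; the solid line marks equal signal and the dotted lines a 2-fold difference, and many of the red points lie below the solid line.

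In the lists as deposited, most gene desert peaks of replicate 1 had a partner in replicate 2, whereas most of those in the longer list of replicate 2 had none. In replicate 1, 2433 gene desert peaks (90.6%) shared at least 1 bp with a peak of the second library, and 85.9% of all peaks of replicate 1 did. In replicate 2 the number was 2405 (37.8%), against 56.2% of all peaks. The number of overlapping peaks was thus nearly the same from either side, and the shares differ with the length of the lists, so no SD is given for them. With the same number of strongest peaks taken from each library the share was 71% in both. Other intergenic peaks overlapped in 87.9% of cases in replicate 1 and in 56.0% in replicate 2. Gene deserts held the higher share in replicate 1 and the lower one in replicate 2, so the comparison had no common direction.

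The partner followed the signal. When all peaks of a library were ranked by signal and divided into quartiles, 1398 of the gene desert peaks of replicate 1 (52.0%) and 3221 of replicate 2 (50.6%) fell into the weakest quartile. In that quartile 85.6% of replicate 1 and 12.3% of replicate 2 overlapped the other library. In the strongest quartile, which held 191 and 621 members, the shares were 99.5% and 97.3%. Beside other intergenic peaks of the same quartile, gene desert peaks of replicate 1 overlapped more often, in 85.6% against 75.2% in the first quartile, 93.0% against 85.1% in the second, 98.2% against 94.9% in the third and 99.5% against 99.1% in the fourth. In replicate 2 the shares were 12.3% against 16.3%, 40.3% against 43.2%, 76.6% against 75.7% and 97.3% against 97.1%, with no common direction.

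**Figure D3:**
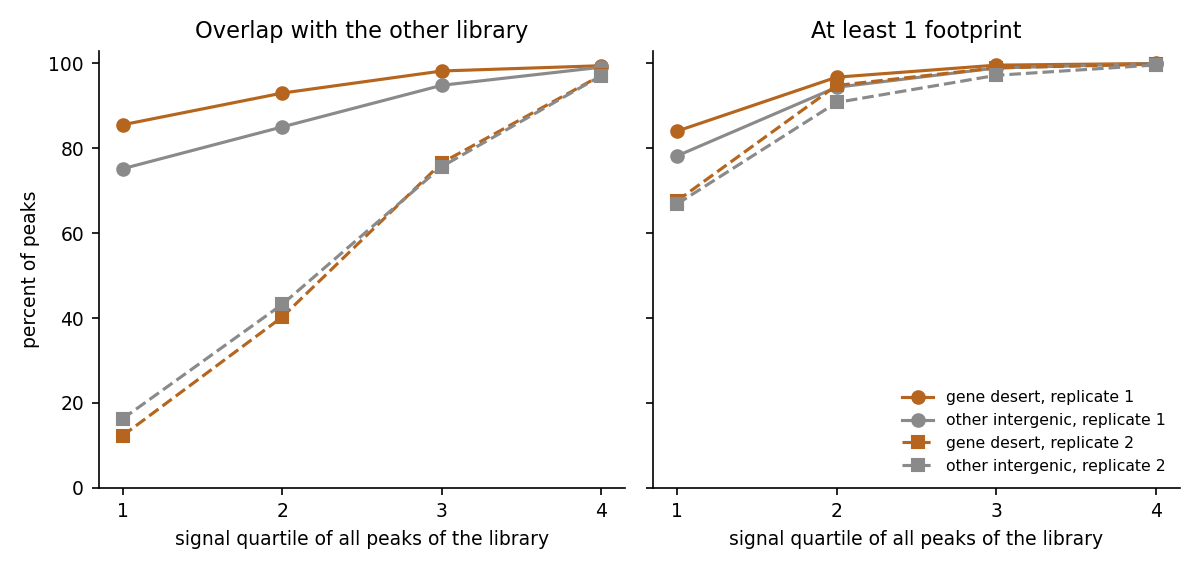
Percent of gene desert peaks and other intergenic peaks that overlap a peak of the other library (left) and that hold at least 1 footprint (right), by quartile of the signal of all peaks of the same library, weakest to strongest. Solid lines are replicate 1 and dashed lines replicate 2; in replicate 2 the overlap of gene desert peaks goes from 12.3% in the first quartile to 97.3% in the fourth.

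Peaks without a partner were weak. Those in replicate 1 alone numbered 253, with a median signal of 0.561, and those in replicate 2 alone numbered 3958, with 0.437. Of these, 144 and 1540 overlapped the wider peak list of the other library, and 74.3% and 43.9% held a base that the other library listed at a false discovery rate of at most 0.05. Other peaks without a partner are not set beside these values, so whether they are particular to gene deserts is not shown. Their base composition was not alike, with a median GC content of 50.5% in replicate 1 alone and 44.5% in replicate 2 alone, while the shared peaks had 48.0% and 47.5%. The strongest peak found in replicate 1 alone, between Pcmtd1 and Sntg1, had a signal of 5.54 in that library. Replicate 2 had a peak with a signal of 6.50 that ended 20 bp before it, and listed bases inside the stretch itself at a false discovery rate of 0. In all, 29 of the 253 peaks of replicate 1 alone (11.5%) and 33 of the 3958 of replicate 2 alone (0.834%) lay within 100 bp of a peak of the other library. Among other intergenic peaks without a partner, 10.5% of 2008 in replicate 1 and 1.94% of 11287 in replicate 2 did.

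The other four of the 5 strongest in replicate 1 alone lay 11.1 to 20.1 kb from the nearest peak of replicate 2 and had signals between 1.70 and 2.31. Each of them overlapped the wider list of replicate 2. In replicate 2 alone the strongest was a peak between Hivep2 and Adgrg6 with a signal of 3.26. It was followed by peaks between Phkb and Abcc12 (2.22), Plk2 and Actbl2 (2.09), Myom2 and Csmd1 (2.02), and Rps24 and Zmiz1 (1.86). The peak between Myom2 and Csmd1, 110 bp wide, was the only one of these 5 outside the wider list of replicate 1 and had no listed base there. Its central 50 bases occurred 5 times in the reference genome, whereas those of the other four occurred once.

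Where the libraries paired one to one, the signals varied together. Over the 2327 pairs, log2 signals had a Pearson's r of 0.69 and a Spearman's rho of 0.68, as a description across peaks that share a tissue and a scale, and 82.5% of the pairs lay within 2-fold. The median of the log2 difference, replicate 1 minus replicate 2, was -0.24 with an SD of 0.70 across pairs, and replicate 1 was the higher in 840 pairs (36.1%). In 13922 pairs of other intergenic peaks the median difference was 0.11 and replicate 1 was higher in 55.1%. The difference moved with GC content in the gene desert pairs, with medians of -0.41 at 40 to 45% GC, -0.32 at 45 to 50%, -0.19 at 50 to 55% and 0.09 above 55%. The values at the same GC in other intergenic pairs were 0.06, -0.02, 0.05 and 0.26. Only 6 gene desert pairs differed by over 4-fold, 2 of them higher in replicate 1 and 4 in replicate 2.

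Most gene desert peaks contained footprints, though fewer than other intergenic peaks did. At least 1 footprint lay wholly inside 2442 peaks of replicate 1 (90.9%) and 5233 of replicate 2 (82.2%), against 88.3% and 85.4% of all peaks. The shares of other intergenic peaks were 92.2% and 87.7%. The mean number of footprints was 2.15 and 2.07 per gene desert peak and 2.41 and 2.34 per other intergenic peak, and footprints covered 17% and 11.7% of the bases of gene desert peaks and 21.5% and 15.2% of those of other intergenic peaks. Within each quartile of signal the share with a footprint was higher in gene desert peaks: in the weakest, a footprint was present in 84.1% and 67.6% of gene desert peaks and in 78.2% and 66.9% of other intergenic peaks. The share moved with signal, as the plot by signal quartile shows.

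Gene desert peaks without a footprint numbered 244 and 1130. They were weak, with median signals of 0.449 and 0.320, and narrow, with median widths of 98.5 and 111.5 bp, and 74.2% and 8.23% of them overlapped the other library. At the other end, 29 and 168 gene desert peaks (1.08% and 2.64%) held 6 or more footprints, against 1.92% and 3.64% of other intergenic peaks. Gene desert footprints lay a median of 30.5 and 37.5 bp from the centre of their peak. Wide footprints of at least 25 bp made up 11.6% and 5.25% of them, against 19.1% and 10.9% in other intergenic peaks.

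Footprints of the libraries often overlapped, by at least 1 bp. The share that would overlap by position alone was not tested. In the 2327 gene desert pairs, 2853 of 4909 footprints of replicate 1 (58.1%) and 2836 of 5129 of replicate 2 (55.3%) overlapped a footprint of the other library. In other intergenic pairs the shares were 63.7% and 65.4%. A footprint common to both libraries was present in 1739 gene desert pairs (74.7%), against 83.0% of other intergenic pairs.

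Searching the central 200 bp on both strands for 17 consensus motifs showed AP-1 and E-box matches as the most frequent in both libraries. CTCF came next in replicate 1, while in replicate 2 homeobox (4.98%), TEAD (3.68%) and SOX (2.77%) matches were more frequent than CTCF. These motifs are also common in gene desert sequence. Of all gene desert windows that reach the GC minimum, 3.89% held a homeobox, 2.83% a TEAD and 4.58% a SOX match, against 0.0584% for CTCF. SOX matches were thus rarer in the peaks of both libraries (2.79% and 2.77%) than in these windows, and the order of motifs does not show enrichment. CTCF, RFX, NFI, MEF2 and REST consensus sequences were searched by name, and the other 12 were AP-1 (TGANTCA), the NeuroD-type E-box (CAGATGG), SOX (ACAATGG), TEAD (GGAATGT), homeobox (TAATTA), POU (ATTTGCAT), CRE (TGACGTCA), EGR (GCGTGGGCG), SP/KLF (GGGGCGGGG), NRF1 (GCGCATGCG), YY1 (AAGATGGCG) and ETS (ACCGGAAGT). None of the spelled motifs contains another. A match describes the letters and does not show that the factor was bound.

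AP-1, the dimer of Fos and Jun proteins that neuronal activity induces, had a match in 17.3% of gene desert peaks of replicate 1 and 21.0% of replicate 2 (19.2% ± 2.56, SD, n = 2). Other intergenic peaks had one in 13.7% and 17.6% (15.6% ± 2.78) and all peaks in 10.6% and 15.5%. The gene desert share was the higher in each library, but the classes overlapped, with 17.3% in gene deserts of replicate 1 and 17.6% in other intergenic peaks of replicate 2. The E-box bound by NeuroD factors, which drive neuronal differentiation, was present in 16.2% and 15.4% of gene desert peaks (15.8% ± 0.583) and in 11.5% and 12.1% of other intergenic peaks (11.8% ± 0.402). Here the values of the classes did not overlap. Of all gene desert windows of 200 bp with the same GC minimum, 5.85% held an AP-1 match and 4.40% the E-box. E-box matches lay in a footprint in 53.7% and 48.3% of cases and AP-1 matches in 31.8% and 34.6%, while 15.3% and 11.7% of all bases of the central windows lay in footprints. A share of matches of 7 bp and a share of single bases are unlike measures. In other intergenic peaks all of these were higher: 56.6% and 52.3% for the E-box, 34.6% and 39.5% for AP-1 and 19.9% and 15.3% for bases. Matches of NFI, a family of factors active in glia and neurons, were rare, at 1.30% and 0.802% of gene desert peaks and 0.779% and 0.440% of other intergenic peaks. Of those in gene deserts 94.3% and 68.6% lay in a footprint, and of those in other intergenic peaks 91.6% and 77.2%.

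CTCF matches were less frequent in gene desert peaks than in other intergenic peaks. They were found in 154 gene desert peaks of replicate 1 (5.73%) and 164 of replicate 2 (2.58%), against 7.65% and 4.9% of all peaks. Other intergenic peaks had them in 12.6% and 7.83%, peaks inside genes in 9.07% and 5.11% and promoter peaks in 1.94% and 1.69%. Only 0.0584% of gene desert windows with the same GC minimum held one. In the strongest quartile of signal the shares were 22.0% and 6.12% in gene deserts and 28% and 14.5% in other intergenic sequence, so the order was the same among strong peaks. The number of gene desert peaks with a match was thus nearly equal in both libraries. In replicate 2, 5.95% of the shared peaks and 0.531% of the peaks without a partner had one.

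Gene desert peaks with a CTCF match had higher signals than those without. Their median signal was 1.6 and 0.894, against 0.752 and 0.561 in gene desert peaks with no match, and 91.6% and 87.2% of them overlapped the other library, against 90.5% and 36.5%. Of the matches, 94.2% and 86.6% lay in a footprint, against 98.6% and 95.7% in other intergenic peaks. The signal gap was thus wider in replicate 1, and the gap in overlap was seen in replicate 2 alone. Matches of factors typical of CpG-rich promoters were rare: SP/KLF was found in 11 and 14 gene desert peaks, NRF1 in 5 and 7, YY1 in 6 and 6 and ETS in 0 and 2. As shares of gene desert peaks these were 0.410% and 0.220% for SP/KLF, 0.186% and 0.110% for NRF1, 0.223% and 0.0943% for YY1 and 0 and 0.0314% for ETS. Of all peaks, promoters included, 5.53% and 3.14% held an SP/KLF match, 0.982% and 0.581% NRF1, 0.781% and 0.460% YY1 and 0.443% and 0.295% ETS. REST matches were too rare to compare, with none in gene desert peaks and 4 and 2 among all peaks. The mean number of CpG dinucleotides in the central window was 3.05 and 2.46 in gene desert peaks and 4.40 and 3.71 in other intergenic peaks.

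**Figure D4:**
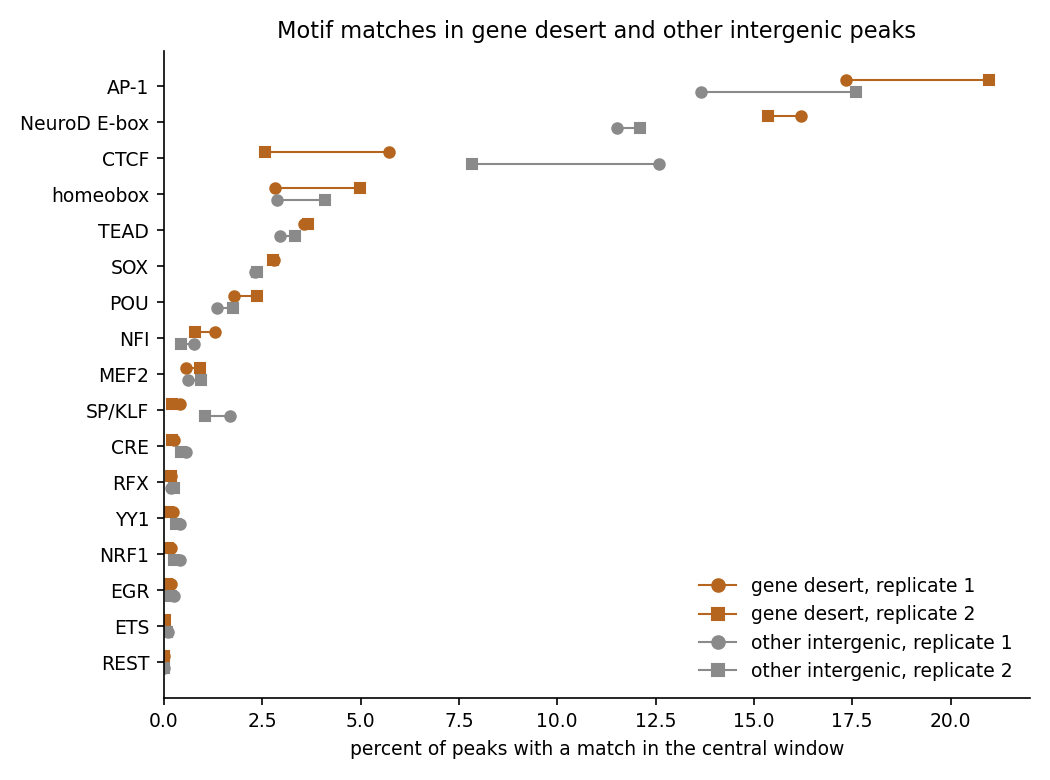
Percent of gene desert peaks (brown, upper) and other intergenic peaks (grey, lower) with a match to each of 17 motifs in the central 200 bp; circles are replicate 1, squares replicate 2. AP-1, the NeuroD E-box, TEAD, SOX, POU and NFI lie higher in gene desert peaks of both libraries. CTCF is among those that lie lower (5.73% and 2.58%, against 12.6% and 7.83%).

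Gene deserts made up 457.9 Mb, 19.1% of the ungapped sequence of chromosomes 1 to 19, and 191.6 Mb of them reached the GC minimum in windows of 200 bp. On that sequence there were 14 gene desert peaks per Mb in replicate 1 and 33.2 in replicate 2. Other intergenic sequence, counted in the same way, had 34.0 and 52.7 per Mb. The density of gene desert peaks fell further with distance from genes. In replicate 1 it was 19.2 per Mb at 200 to 300 kb from the nearest protein-coding TSS, 15.7 at 300 to 500 kb, 10.4 at 500 to 1000 kb and 4.66 beyond 1000 kb. In replicate 2 the values at these distances were 41.0, 37.4, 27.0 and 15.9 per Mb. The median signal fell along the same distances, with 0.838, 0.765, 0.673 and 0.653 in replicate 1 and 0.627, 0.574, 0.520 and 0.394 in replicate 2, and so did the median GC content, with 49, 48.5, 47 and 46% in replicate 1. The parts played by distance and GC content in the signal were not tested.

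Across gene desert peaks the signal had a weak rank correlation with distance, a Spearman's rho of -0.14 (n = 2686) and -0.15 (n = 6363), and with GC content, 0.14 and 0.20, given as a description of peaks that share a library. It followed the number of footprints more closely (0.53 and 0.61). Peaks on either side of the distance limit had similar medians. Those at 200 to 220 kb, inside it, had median signals of 0.924 and 0.627 (n = 271 and 586), and those at 180 to 200 kb, outside it, had 0.812 and 0.631 (n = 303 and 614). At the GC limit, peaks with 40 to 42% had 0.693 and 0.494 (n = 176 and 975), and desert peaks with 38 to 40%, outside it, had 0.680 and 0.447 (n = 108 and 684). Repeat sequence, marked as such in the reference, made up 8.49% and 9.15% of the average gene desert peak and 44.1% of the gene desert windows that reached the GC minimum. How reads from repeats were placed was not given in the sources used here, so this gap does not show how open repeats were. Peaks of which at least 50% was repeat sequence were 2.76% and 3.0% of gene desert peaks. A TSS of a noncoding gene lay within 1 kb of 76 and 116 gene desert peaks, whose median signals were 0.808 and 0.614.

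The gene desert sequence was divided by the flanking protein-coding TSS into 826 deserts, with a median of 304 kb and a largest one of 3985 kb. Of these, 599 held a gene desert peak in replicate 1 and 706 in replicate 2, 597 in both and 118 in neither. The deserts without a peak were small, with a median of 80.7 kb in replicate 1 and 43.1 kb in replicate 2. The largest desert with none in either library, 981 kb, lay between Ppp6c and Lrp1b. Over the 630 deserts of at least 100 kb, the number of peaks per 100 kb had a Spearman's rho of 0.83 between the libraries, with medians of 0.492 and 1.44. Peaks were spread over many deserts: 50% of them lay in 123 deserts in replicate 1 and in 145 in replicate 2. Members lay a median of 29.6 kb (replicate 1) and 13.6 kb (replicate 2) from the nearest other member, and 25.1% and 33.1% had another within 5 kb.

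The desert with the most shared peaks lay on chromosome 5 between Auts2, a gene of neuronal development, and Castor2. It held 28 peaks in replicate 1 and 47 in replicate 2, of which 26 paired, or 2.57 and 4.32 per 100 kb. The desert between Celf4, which encodes an RNA-binding protein of neurons, and Pik3c3 on chromosome 18 held 24 and 66 peaks, but over 3610 kb, so that its density was only 0.665 and 1.83 per 100 kb. The desert between Gfra2, a receptor gene for a neurotrophic factor, and Gm9195 held 20 and 33. Between Kcnj2, a potassium channel gene, and Sox9, a transcription factor gene of glia, there were 19 and 30, and 18 and 39 between Slc4a3 and Epha4, a desert with a strong peak described above. The other five of the 10 richest lay between Camk1g and the semaphorin receptor gene Plxna2 (16 and 32), Zfp608 and Gramd3 (16 and 31), Plekhb2 and Hs6st1 (16 and 28), Pkn2 and Lmo4, which encodes a transcriptional cofactor of the cortex (16 and 24), and the potassium channel gene Kcna4 and Mettl15 (15 and 33). The densest of the 10 in replicate 1 was that next to Lmo4, with 2.69 per 100 kb. Peaks in these deserts had median signals between 0.627 and 0.986 in replicate 1 and between 0.601 and 1.09 in replicate 2.

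**Figure D5:**
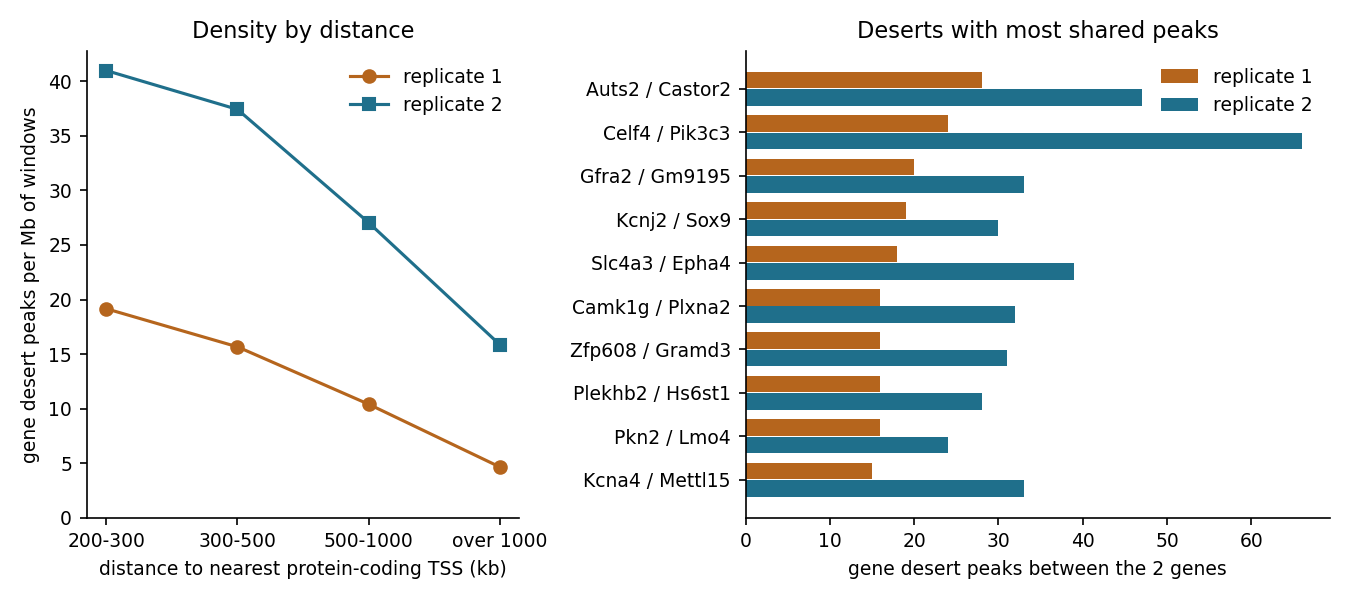
Left, gene desert peaks per Mb of gene desert windows that reach the GC minimum, by distance in kb to the nearest protein-coding TSS; right, number of gene desert peaks in each of the 10 deserts with most shared peaks, named by the flanking genes, for replicate 1 and replicate 2. The density falls at each step of distance in both libraries, and the desert between Celf4 and Pik3c3 holds the most peaks of replicate 2, 66.

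Genes that flank gene desert peaks mostly had open promoters. The nearest protein-coding genes on each side of the peaks were 1074 genes in replicate 1 and 1239 in replicate 2. Of these, 828 (77.1%) and 952 (76.8%) had a promoter peak, within 1 kb of a TSS, in the same library (77.0% ± 0.183, SD, n = 2). Of all protein-coding genes on chromosomes 1 to 19, 63.7% and 64.6% had one. Olfactory and vomeronasal receptor genes, with a promoter peak in only 1.10% and 2.54%, lower that share. They were 7.0% of all protein-coding genes but 0.279% and 0.242% of the genes flanking a peak. How much of the gap they account for was not tested. Among 361 and 196 genes that flank a desert with no gene desert peak the shares were 65.7% and 65.8%. The median signal of the promoter peaks was nevertheless lower, at 2.64 and 2.11 for genes flanking a peak and 3.93 and 2.94 for all protein-coding genes. It was lower still, at 2.55 and 1.88, for genes that flank a desert with no gene desert peak. Deserts with peaks were also the longer ones, and the part that desert length plays in these shares was not tested.

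Flanking genes were grouped by gene family. Axon guidance genes, which steer growing axons, were 15 of the flanking genes in both libraries (23.4% of 64 family members), and all 15 had a promoter peak, as did 89.1% and 90.6% of the whole family. Any desert, with or without a peak, was flanked by 18 of the family. Of cell adhesion and synapse organising genes 43 and 45 flanked a peak (31.9% and 33.3% of 135), while 47 flanked any desert. Of those next to a peak, 39 and 40 (90.7% and 88.9%) had a promoter peak, against 66.7% and 74.1% of the family. Flrt2, an adhesion protein gene, stood next to 23 and 73 gene desert peaks, Cdh8 to 25 and 46 and the protocadherin gene Pcdh17 to 15 and 50. Ion channel and neurotransmitter receptor genes next to a peak numbered 33 and 40, while 47 flanked any desert. Those next to a peak had 30 and 38 open promoters (90.9% and 95%), Kcnj2 and Kcna4 among them, against 73.9% and 73.4% of the family. Developmental transcription factor genes next to a peak numbered 35 and 40, while 44 flanked any desert. Those next to a peak had 23 and 27 open promoters, a share of 65.7% and 67.5%, against 58.4% and 55.9% of the family. Among them Sox9 stood next to 22 and 36 peaks, Tshz3 to 16 and 30, Tshz1 to 14 and 28, Zeb2 to 10 and 32 and Mef2c, a gene of neuronal and microglial regulation, to 10 and 28. Most members of these families that border a desert also flanked a peak, so the counts largely follow which genes border deserts. Of all genes beside deserts, 1074 and 1239 flanked a peak, and 361 and 196 did not. Adhesion and developmental transcription factor genes held a larger share of the genes flanking a peak than of those beside any desert, in both libraries. Ion channel and receptor genes held a smaller one (3.07% and 3.23%, against 3.28%). Axon guidance genes had no common direction. Whether any family flanked peaks more often than other genes beside deserts was not tested.

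Some of these genes had an open promoter in a single library. The Tshz3 promoter had a signal of 1.70 in replicate 1 and no peak in replicate 2, and Camk1g had no promoter peak in replicate 1 and a signal of 1.74 in replicate 2. The promoters of Epha4 (3.89 and 2.74), Plxna2 (5.0 and 2.90), Epha7 (4.97 and 5.78) and Efnb2 (6.16 and 5.07) were open in both. Genes of the olfactory and vomeronasal receptors, 7.0% of all protein-coding genes and silent in most tissues, were rare beside deserts of any kind, where 8 of them stood. In each library 3 flanked a gene desert peak, and none of these had a promoter peak, while 1.10% and 2.54% of the whole family did. Olfr1507 was the most frequent, next to 17 and 21 peaks.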

How the data were processed

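Members, gene families, motifs and named-peak rules were chosen with earlier results of these data known. For each library the authors deposited a shorter peak list, used here, a wider list, footprints and per-base false discovery rates, on mm10 per the labels. Each peak carries a signal that the authors deposited; scaling, aligner, callers and read depth were not given in the sources used here. Per-base q-values (false discovery rates) that the authors deposited are listed up to 0.05. The value in the authors' footprint lists is constant, so only their positions were used.

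Coordinates were read on GRCm38.p6, the assembly behind mm10; no peak passed a chromosome end. Genes and TSS came from the comprehensive GENCODE M21 annotation, with 20780 protein-coding genes on chromosomes 1 to 19, and repeats from the lower-case bases of the reference. Overlap meant at least 1 bp, a footprint counted when wholly inside a peak, and a pair was a peak that overlapped exactly 1 peak of the other library, both ways. Some members overlapped another member of the same list (8 in replicate 1, 51 in replicate 2) and were counted singly. With 2 libraries no test was run, and values are given as mean ± SD. Named peaks are the 10 shared members of highest mean signal, the 5 with most footprints and the 5 strongest found in each library alone, some of which are not reported here; named deserts are the 10 with most shared members, and named family members are the 5 with most members beside them. The overlap, distance and motif code was checked against direct enumeration on simulated intervals. Python 3.11.15, numpy 2.4.6, pandas 2.3.3, scipy 1.17.1 and matplotlib 3.10.9 were used.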

Additional observations from a re-analysis of the deposited data

How the results depend on the processing

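Across 70 alternative values, 54 stayed within the spread between the libraries, or within 1.5 times for the number of peaks. Where the spread was the limit, leaving out a library could not exceed it, since the value of the other library is returned. Those alternatives count among the 54 and show no stability. For the overlap share that spread comes from lists of unequal length and is too wide to show stability: with equal numbers the shares were 71% in both libraries, against 90.6% and 37.8%. The CTCF share, 4.16% on average, became 2.39% in the wider lists, also within its wide spread. The mean number of gene desert peaks, 4524.5, became 7941 over 100 kb from a TSS, 1207.5 over 500 kb and 8738 in the wider peak lists. Keeping the strongest peaks in equal number gave 2664 (2686 in replicate 1, 2642 in replicate 2), so the gap in number was not seen between lists of equal length. Leaving out a library gave 2686 to 6363. The median signal, 0.673, became 0.388 in the wider lists and 0.920 with equal numbers (0.772 in replicate 1, 1.07 in replicate 2), and the share with a footprint, 86.6%, became 65.0% and 94.4% (90.9% and 97.9%) under these settings. Leaving out a library gave medians of 0.574 to 0.772 and footprint shares of 82.2% to 90.9%. The share of flanking genes with a promoter peak, 77.0% with an SD of only 0.183, became 76.5% over 100 kb, 79.5% over 500 kb, 80.8% in the wider lists, 74.5% with equal numbers and 75.3% with promoter peaks within 500 bp. It became 78% with the basic annotation and 77.2% without peaks within 1 kb of any annotated TSS, both alternatives chosen after seeing the data. The causes of these changes were not tested. No paired analysis was possible because the study holds a single group. Read depth is unknown, so weak peaks missing from the shorter list of replicate 1 cannot be called absent.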
